A study of Mus musculus with 9 samples.

Results

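Imprinted genes are read from only 1 of the 2 parental copies, and 33 of them were followed here across ribosome footprints of 3 mouse striatal cell lines. The members were taken by symbol from the deposited table, where all 33 had a row among 36410. From general knowledge of the mouse, 21 are expressed from the paternal copy, 11 from the maternal copy, and Gnas from different copies depending on transcript and tissue. For 5 of the 33 (Gab1, Grb10, Ube3a, Ppp1r9a and Gnas) the imprint was marked as dependent on tissue, cell type or transcript. These marks came from the same general knowledge, and the imprint of other members may depend on tissue too. The table holds no allele, so the copy that was read in these cells was not measured.

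The lines are the immortalized striatal cells STHdhQ7/Q7 (control), with 7 glutamines encoded by both Htt alleles, STHdhQ7/Q111 (HD-het), with 7 in 1 allele and 111 in the other, and STHdhQ111/Q111 (HD-homo), with 111 in both. They are dividing precursor cells from embryonic striatum that share an immortalizing T antigen, and the labels give C57/BL6 as the strain of all of them. Cycloheximide, which arrests elongating ribosomes, was given to every culture for 10 min, and fragments of 26 to 32 nt from the 80S monosome fraction were sequenced in 3 libraries per line. Each genotype is 1 cell line, so genotype and line cannot be told apart, and whether the libraries of a line came from separate cultures is not given in the sources used here, so p-values measure the spread between these libraries.

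Imprinting is set in the germline, where DNA methylation is laid down at control regions in egg or sperm and then kept through cell division. Many imprinted genes lie in domains in which 1 control region governs several neighbours. Paternally expressed genes are known for promoting fetal growth and maternally expressed ones for restraining it, and in brain several act in neural precursors and in hypothalamic development. Loss of the paternal Snrpn to Ndn domain underlies Prader-Willi syndrome, and loss of maternal UBE3A underlies Angelman syndrome.

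Starts of members on which the results turn are shown first, among them a start region shared by a pair of neighbours, Peg3 and Usp29, of which only Peg3 was tested. Peg3 and Usp29 run head to head with 96 bases between them. The interval is given on the plus strand with 30 bases of each gene, at chr7:6730433-6730588 of GRCm38.p6, from the RefSeq genome of the build the submitters used. The promoters of Nnat, Plagl1 and Grb10 (250 bases before to 50 after the start, RefSeq, strand of the gene) are at chr2:157559828-157560127 (plus strand), chr10:13090582-13090881 (plus strand) and chr11:12037371-12037670 (minus strand). Capitals mark TGCCGC or its reverse complement GCGGCA, the core that the zinc finger protein ZFP57 recognises when methylated at imprinted control regions.
Peg3-Usp29: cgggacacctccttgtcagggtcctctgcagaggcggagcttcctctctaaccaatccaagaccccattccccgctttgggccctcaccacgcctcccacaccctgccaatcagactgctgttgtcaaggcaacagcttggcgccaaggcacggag
Nnat promoter: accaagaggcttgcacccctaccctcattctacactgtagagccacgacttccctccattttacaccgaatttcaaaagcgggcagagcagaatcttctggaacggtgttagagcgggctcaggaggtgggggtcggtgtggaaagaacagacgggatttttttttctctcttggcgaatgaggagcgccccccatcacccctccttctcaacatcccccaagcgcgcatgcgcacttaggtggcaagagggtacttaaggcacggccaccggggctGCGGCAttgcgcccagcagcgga
Plagl1 promoter: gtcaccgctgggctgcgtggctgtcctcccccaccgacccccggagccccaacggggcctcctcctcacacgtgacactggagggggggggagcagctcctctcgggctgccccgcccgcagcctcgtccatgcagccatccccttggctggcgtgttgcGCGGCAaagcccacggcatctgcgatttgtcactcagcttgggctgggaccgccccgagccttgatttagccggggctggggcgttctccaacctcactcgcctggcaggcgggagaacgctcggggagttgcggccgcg
Grb10 promoter: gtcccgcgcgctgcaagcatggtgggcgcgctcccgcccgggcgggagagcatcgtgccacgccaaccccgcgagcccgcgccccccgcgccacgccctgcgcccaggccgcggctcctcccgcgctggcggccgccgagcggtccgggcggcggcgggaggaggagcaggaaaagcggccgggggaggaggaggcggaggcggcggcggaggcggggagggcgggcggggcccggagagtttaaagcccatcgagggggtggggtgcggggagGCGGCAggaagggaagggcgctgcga
The Peg3-Usp29 interval held no such core and 6 CpG sites, and the promoters of Nnat, Plagl1 and Grb10 held 1 core each. A second Grb10 promoter window and those of Ndn, Dlk1, Peg3, Usp29, Igf2r and Ube3a, which are not shown, held no core. The interval between Sgce and Peg10, also not shown, held 1 core and 14 CpG sites. Promoter windows were found for 26 of the 33 members. Of their 43 windows 11 held the core on either strand (25.6%), against 11.6% of all 32851 RefSeq promoter windows of the same length and 14.1% of those of protein-coding genes. The core itself holds a CpG, and the median window held 15 CpG sites for members, 7 for all promoters and 13 for protein-coding genes. A match is a description of the letters and not a binding site.

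Library totals ran from 22504543 to 41888701 counts. Levels are given as CPM, a gene's counts per 1000000 of the library total after TMM scaling, which evens out composition between libraries. A count of 3, about the 95% upper limit of the expected count where 0 was observed, stood for 0.0714 to 0.142 CPM. This limit covers counting error only, since amplified fragments are not independent molecules. The labelled tissue was not visible in every striatal marker: Drd1 and Drd2 held 0 counts in all 9 libraries, and Ppp1r1b stood at 12.04 ± 5.01 CPM in control cells (SD, n = 3). The striatal list (13 genes with a row) summed to 68.7 to 77.6 CPM in control, 82.5 to 92.9 in HD-het and 77.6 to 87.3 in HD-homo libraries. Most of it was Foxp1 (means of 33.5, 43.1 and 56.9 CPM in the same order) and Meis2 (25.9, 38.1 and 10.6). Of 5 tested, 3 were higher and 1 lower in HD-het cells, and 2 higher and 1 lower in HD-homo cells. The neural precursor list (10 genes, with Gsx2 at 0 throughout and Sox1 at 0 in HD-homo cells) summed to 401 to 551 CPM in control, 1123 to 1257 in HD-het cells and 31.5 to 43.9 in HD-homo libraries. The mesenchymal list (8 genes) summed to 6422 to 9183, 25487 to 27773 and 5628 to 7145 CPM in the same order. These sums rest on a few abundant genes: of the 7 mesenchymal genes tested 6 were higher in HD-het cells, and in HD-homo cells 3 were higher and 1 lower, with Col1a2 at 24.03 ± 5.51 CPM in control and 1027 ± 135 in HD-homo cells, and Acta2 at 4100.2 ± 284 and 268 ± 81.0. The oligodendrocyte lineage list (6 genes) summed to 2.60 to 4.83, 5.91 to 10.03 and 114 to 183 CPM, nearly all of it Pdgfra, with Olig2 at 0 throughout. The lines therefore differed in cell state markers along with the imprinted genes, and the part of such differences in the results below was not tested. In these bulk libraries, fewer cells expressing a gene and less RNA per cell cannot be told apart, and matched mRNA was not used.

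The 4 noncoding members, H19, Meg3, Kcnq1ot1 and Peg13, had a count of 0 in every library. The same was true of nearly all long noncoding RNAs of the table, of which 29 of 10169 (0.285%) had any count, and Malat1, Neat1 and Xist were at 0 as well, so these zeros describe the table and not the RNAs. Of the 29 coding members 21 passed the filter on low counts, 14 paternally expressed, 6 maternally expressed and Gnas. A gene that is high in only 1 line can pass that filter through this line, so counts over the 21 are given as a description. The other 8 had counts in some libraries but were not tested.

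Most of the 21 differed between lines, as did most genes of the table. A difference among the 3 lines passed an adjusted p of 0.05 (edgeR quasi-likelihood F test, Benjamini-Hochberg over 12678 genes) for 20 of the 21, and for 78.4% of all genes tested. Mkrn3 was the exception. Between HD-het and control cells 17 of 21 passed, 11 higher and 6 lower in HD-het, against 60.1% of all genes (31% higher, 29.1% lower). Between HD-homo and control cells 17 of 21 passed as well, 9 higher and 8 lower, against 45.7% (23.3% higher, 22.3% lower). Between HD-homo and HD-het cells it was again 17 of 21, 5 higher and 12 lower in HD-homo, against 67.5% (34.6% higher, 32.8% lower).

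Large changes were found as well. A change of at least 4-fold was passed by 4 members in HD-het against control, where 7.7% of all genes did so, by 7 in HD-homo against control (9.41%), and by 10 between the mutant lines (12%). The 3 libraries of one line lay wholly above or below those of the other for 18, 16 and 17 of the 21 members in these comparisons, against 71.2%, 55.5% and 69.5% of all genes tested. The median absolute log2 fold change of the 21 was 1.14, 1.62 and 1.94, against 0.46, 0.32 and 0.55 over all genes. All genes were not matched to the members by level. Only 10 members reached a mean of 10 CPM in a line, and some of the largest fitted values (Nnat, Peg3, Dlk1 and Ppp1r9a) come from a line with few or no counts.

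Both mutant lines were compared with the same control libraries, and each comparison's values are therefore given side by side. The filter was set over all 9 libraries, so a member can enter a comparison through the line left out of it. This held for 3 comparisons below, Dlk1 between HD-homo and control, Phlda2 between HD-het and control, and Igf2 between the mutant lines, none of which could be tested with the 6 libraries compared alone.

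**Figure D1:**
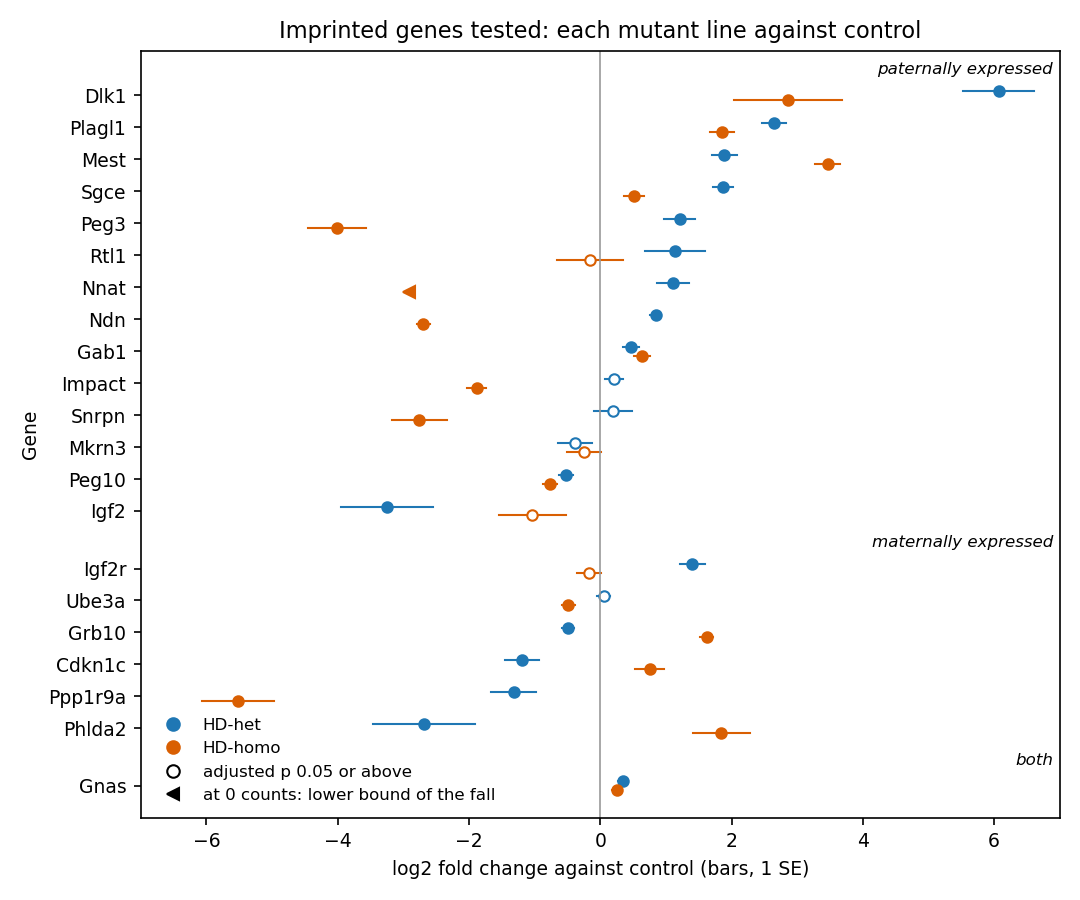
Fitted log2 fold change of each imprinted gene tested, HD-het (blue) and HD-homo (orange) against control, with bars of 1 SE; open points did not pass an adjusted p of 0.05. The 6 genes with filled points on opposite sides of 0 are Peg3, Nnat, Ndn, Grb10, Cdkn1c and Phlda2, and the triangle for Nnat in HD-homo is a bound because all 3 libraries held 0 counts.

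The growth factor axis was uneven across the lines. Igf2, a fetal growth factor read from the paternal copy, was low everywhere, with 14, 27 and 16 counts in control libraries, 0, 4 and 1 in HD-het libraries, and 7, 3 and 14 in HD-homo libraries. As CPM, HD-het libraries lay below those of both other lines, and HD-homo libraries overlapped control. Igf2 was lower in HD-het than in control cells (log2 fold change ± SE of -3.25 ± 0.70, adjusted p = 0.00196) with a fitted value of -4.57 without HD-het library 2. It did not pass in HD-homo cells (-1.04 ± 0.51, adjusted p = 0.121), although it passed there without HD-homo library 3 (-1.87, adjusted p = 0.0117). Of the 26-base stretches of its coding sequence 95.5% also lie in Gm49394, a gene with no row in the table, so its counts are uncertain.

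Igf2r, the maternally expressed receptor that clears IGF2 and sorts lysosomal enzymes, stood at 112, 126 and 79.9 CPM in control libraries, 242, 252 and 346 in HD-het libraries, and 112, 81.7 and 87.4 in HD-homo libraries. Every HD-het library lay above every library of the other lines, which overlapped each other. The rise in HD-het cells was 2.64-fold (1.40 ± 0.19, adjusted p = 7.76e-05), and HD-homo cells did not pass against control (-0.17 ± 0.19, adjusted p = 0.476).

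Grb10, an adaptor that restrains insulin and IGF receptor signalling, showed 279, 277 and 237 CPM in control libraries, 193, 205 and 166 in HD-het libraries, and 831, 834 and 774 in HD-homo libraries. All 3 lines were apart, with HD-het lowest and HD-homo highest. It was 1.41-fold lower in HD-het (-0.49 ± 0.10, adjusted p = 0.00123) and 3.08-fold higher in HD-homo cells (1.62 ± 0.10, adjusted p = 2.13e-07). Grb10 is read from the maternal copy in most tissues and from the paternal copy in neurons, and the counts do not tell them apart.

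Gab1, a docking protein for receptor tyrosine kinases whose imprint is described in placenta, stood at 7.45, 8.42 and 8.09 CPM in control libraries, 10.9, 9.96 and 12.5 in HD-het libraries, and 10.8, 13.5 and 12.95 in HD-homo libraries. Control libraries lay below all others, and both mutant lines overlapped. It rose in HD-het (0.47 ± 0.13, adjusted p = 0.00801) and in HD-homo cells (0.63 ± 0.13, adjusted p = 0.00181).

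Gnas encodes the stimulatory G protein alpha subunit along with other products of 1 complex locus, and stood at 801, 759.5 and 817 CPM in control libraries, 1065, 969.7 and 977 in HD-het libraries, and 959.5, 951 and 912 in HD-homo libraries. Control libraries were lowest, and the changes were small, 1.27-fold in HD-het (0.34 ± 0.07, adjusted p = 0.00204) and 1.19-fold in HD-homo cells (0.25 ± 0.07, adjusted p = 0.0178). The HD-homo call was lost without control library 1 (0.24, adjusted p = 0.064) or control library 2 (0.22, adjusted p = 0.0833). RefSeq lists 11 Gnas proteins with coding sequences of 762 to 3402 bases, and the gene count does not separate them.

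Plagl1 and Dlk1, both paternally expressed, were higher in both mutant lines. Plagl1, a zinc finger transcription factor that restrains proliferation, stood at 0.764, 0.904 and 0.715 CPM in control libraries, 5.43, 5.25 and 4.398 in HD-het libraries, and 2.59, 2.94 and 3.28 in HD-homo libraries. The 3 lines did not overlap, and HD-het was highest. The rise was 6.24-fold in HD-het (2.64 ± 0.18, adjusted p = 7.3e-07) and 3.61-fold in HD-homo cells (1.85 ± 0.19, adjusted p = 1.11e-05).

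Dlk1, a membrane protein with EGF repeats that marks precursors, held 0, 2 and 0 counts in control libraries, 46, 58 and 37 in HD-het libraries, and 6, 2 and 7 in HD-homo libraries. Control cells had 2 counts in all, so the ratio is given with its counting interval. It was 79.7 for HD-het over control cells (95% interval 21.7 to 665) and 8.40 for HD-homo over control cells (1.95 to 75.7). HD-het and HD-homo libraries did not overlap. Both rises passed (adjusted p = 4.28e-06 and 0.0148). Dlk1 entered the second comparison through its level in HD-het cells, and this call was lost without HD-homo library 3 (adjusted p = 0.0503). Without control library 2, the only control library with Dlk1 counts, the fitted log2 fold changes were 8.55 and 5.34 in place of 6.07 and 2.86.

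Cdkn1c and Phlda2 are maternally expressed neighbours that restrain growth, the first as the CDK inhibitor p57 and the second as a PH domain protein of the placenta. Cdkn1c held 32, 85 and 60 counts in control libraries, 22, 31 and 15 in HD-het libraries, and 130, 73 and 65 in HD-homo libraries. It fell in HD-het (-1.19 ± 0.26, adjusted p = 0.00201) and rose in HD-homo cells (0.75 ± 0.22, adjusted p = 0.0165), with no overlap between lines as CPM. The rise did not pass without control library 1 (0.53, adjusted p = 0.0634) or HD-homo library 1 (0.62, adjusted p = 0.0629). Phlda2 held 7, 12 and 12 counts in control libraries, 2, 2 and 0 in HD-het libraries, and 59, 34 and 12 in HD-homo libraries. It moved the same ways, -2.69 ± 0.77, adjusted p = 0.0106 in HD-het cells and 1.85 ± 0.43, adjusted p = 0.00444 in HD-homo cells, and its HD-homo libraries ranged from 0.532 to 1.64 CPM. Phlda2 entered the HD-het comparison through its level in HD-homo cells. Between the mutant lines both differed (Cdkn1c 1.94 ± 0.25, adjusted p = 3.56e-05; Phlda2 4.53 ± 0.63, adjusted p = 6.25e-05), higher in HD-homo.

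**Figure D2:**
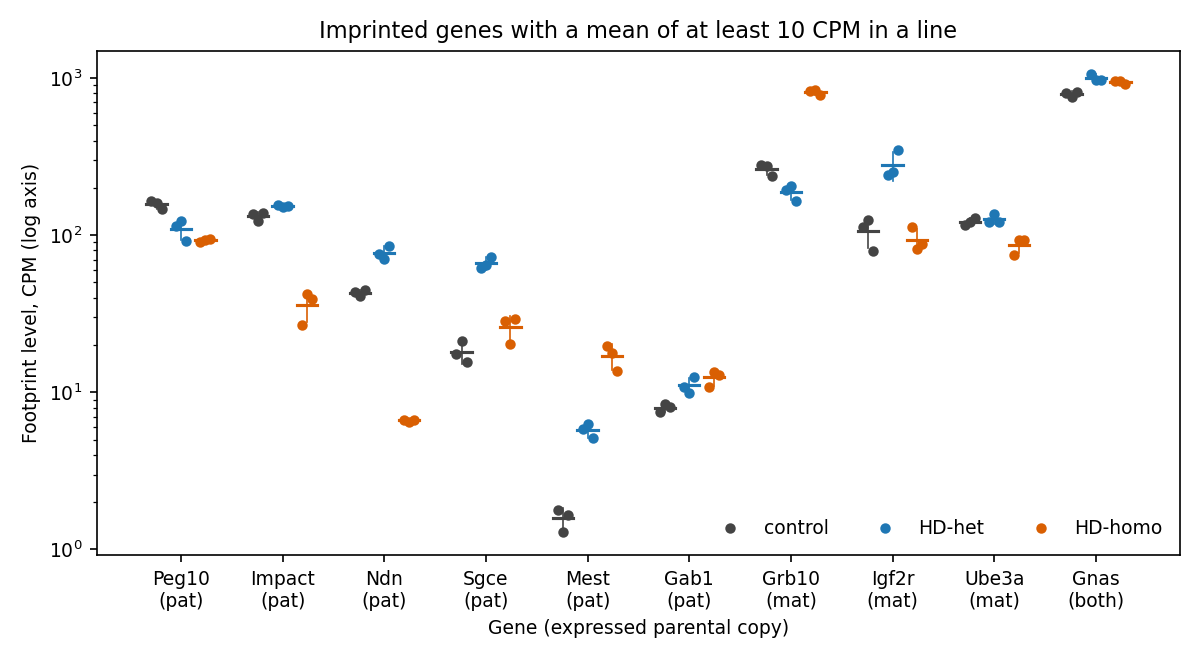
Footprint level in CPM (log axis) of the 10 imprinted genes with a mean of at least 10 CPM in a line, 1 point per library, with the mean as a horizontal line and 1 SD as a vertical line (n = 3). Grb10 and Mest are highest in HD-homo cells, while Ndn and Impact are lowest there in all 3 libraries.

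Sgce and Peg10, paternally expressed neighbours on chromosome 6, went in different directions. Sgce, the epsilon-sarcoglycan whose loss causes myoclonus-dystonia, stood at 17.5, 21.4 and 15.5 CPM in control libraries, 61.4, 64.4 and 73.1 in HD-het libraries, and 28.3, 20.4 and 29.1 in HD-homo libraries. Peg10, derived from a retrotransposon and needed for placental development, stood at 165, 161 and 147 CPM in control libraries, 114, 124 and 91.4 in HD-het libraries, and 90.2, 93.2 and 94.6 in HD-homo libraries. In HD-het cells Sgce rose 3.64-fold (1.86 ± 0.15, adjusted p = 2.58e-06) while Peg10 fell 1.43-fold (-0.52 ± 0.11, adjusted p = 0.00141), and none of the HD-het libraries of either gene overlapped control. In HD-homo cells Sgce rose 1.43-fold (0.51 ± 0.15, adjusted p = 0.0179), with 1 library inside the control range, and Peg10 fell 1.70-fold (-0.77 ± 0.11, adjusted p = 0.000137). The smaller Sgce rise did not pass without control library 1 or 3 or HD-homo library 1 or 3 (0.41 to 0.47, adjusted p = 0.0582 to 0.0691). The difference between the 2 genes was not tested.

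The Peg10 count joins products of 2 reading frames. RefSeq marks a programmed shift of the ribosome by 1 base at the slippery sequence in capitals below, chr6:4755293-4755365 on the plus strand, shown because it sets the coding length used for this gene. Reading without the shift ends after 376 codons, and with it after 1006.
Peg10 frameshift site: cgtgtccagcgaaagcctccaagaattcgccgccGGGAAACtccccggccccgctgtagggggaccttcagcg
A count per gene does not place footprints on either side of this site.

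Ppp1r9a lies next to this pair and encodes neurabin, an actin-binding scaffold of synapses that is maternally expressed in some tissues. It held 81, 119 and 76 counts in control libraries, 41, 34 and 22 in HD-het libraries, and 0, 5 and 0 in HD-homo libraries. The lines did not overlap, in the order control, HD-het and HD-homo from high to low. It was 2.49-fold lower in HD-het (-1.32 ± 0.34, adjusted p = 0.00588) and 46.0-fold lower in HD-homo cells (-5.52 ± 0.55, adjusted p = 1.01e-05). All 5 of its HD-homo counts lay in library 2, and the fitted value was -9.44 without that library and -4.78 without library 1.

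Rtl1, the other retrotransposon-derived member, held 52, 37 and 53 counts in control libraries, 120, 73 and 84 in HD-het libraries, and 20, 57 and 37 in HD-homo libraries. As CPM, HD-het libraries lay just above control, and HD-homo libraries overlapped both. Its libraries varied more than those of any other member tested, with a biological coefficient of variation of 38.3% against a median of 13.01% over the 21. It exceeded control in HD-het cells at an adjusted p close to the threshold (1.14 ± 0.46, adjusted p = 0.0499), a call that was lost without any of control libraries 1, 2 and 3, HD-het libraries 1 and 3, or HD-homo library 3 (adjusted p = 0.0555 to 0.18). In HD-homo cells it did not pass (-0.16 ± 0.50, adjusted p = 0.824).

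In the Prader-Willi and Angelman domain 3 of 5 members (Ndn, Snrpn and Ube3a) were lower in HD-homo cells. Of all genes tested 22.3% were lower there, and Magel2, which is among the 5, was not tested. Ndn, a MAGE family protein that restrains proliferation of precursors and promotes neuronal survival, stood at 43.5, 41.0 and 44.5 CPM in control libraries, 75.6, 70.3 and 85.4 in HD-het libraries, and 6.70, 6.46 and 6.70 in HD-homo libraries. The lines did not overlap, HD-het was highest, and the libraries of a line differed little. It rose 1.79-fold in HD-het (0.84 ± 0.09, adjusted p = 1.35e-05) and was 6.49-fold lower in HD-homo cells (-2.70 ± 0.10, adjusted p = 3.6e-09). Snrpn, a core protein of splicing particles, held 13, 22 and 20 counts in control libraries, 17, 29 and 11 in HD-het libraries, and 3, 3 and 1 in HD-homo libraries. HD-homo libraries lay below all others, with a log2 fold change of -2.76 ± 0.42, adjusted p = 0.000256, and HD-het cells did not pass (0.19 ± 0.28, adjusted p = 0.572). Of its 26-base stretches 56% also lie in pseudogenes, and its annotated span overlaps Snurf, so the counts of Snrpn are uncertain. Snurf had fitted values of -0.13 and -2.44 in the same comparisons (adjusted p = 0.674 and 0.000139).

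Ube3a, an E3 ubiquitin ligase that is maternally expressed in neurons and read from both copies elsewhere, stood at 117, 120.4 and 129 CPM in control libraries, 122, 136 and 122 in HD-het libraries, and 75.2, 93.4 and 93.1 in HD-homo libraries. Control and HD-het libraries overlapped (0.05 ± 0.10, adjusted p = 0.654) and HD-homo libraries lay below both, 1.40-fold under control (-0.48 ± 0.10, adjusted p = 0.00192). Mkrn3, a RING finger protein that restrains the onset of puberty, held 23, 40 and 18 counts in control libraries, 18, 27 and 10 in HD-het libraries, and 24, 22 and 14 in HD-homo libraries. Its lines overlapped, and it passed in none of the comparisons (-0.38 ± 0.26, adjusted p = 0.222 in HD-het, -0.25 ± 0.26, adjusted p = 0.456 in HD-homo cells). Magel2 had 2 counts in 1 control library and none in the others.

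Peg3, Nnat and Impact were lowest in HD-homo cells. Peg3, a paternally expressed zinc finger protein with roles in maternal behaviour and cell survival, held 22, 24 and 14 counts in control libraries, 39, 57 and 29 in HD-het libraries, and 1, 1 and 1 in HD-homo libraries. It rose 2.31-fold in HD-het cells (1.21 ± 0.23, adjusted p = 0.00087), and each HD-homo library held a single count. The ratio of control over HD-homo cells was 17.9 (95% counting interval 5.82 to 89.0) and that of HD-het over HD-homo cells 42.1 (14.1 to 207), with adjusted p = 2.14e-05 and 5.4e-07. Usp29, which shares its start region, had 2 to 10 counts in a library and was not tested.

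Nnat, a small membrane proteolipid of developing brain, held 20, 40 and 21 counts in control libraries, 46, 81 and 30 in HD-het libraries, and 0, 0 and 0 in HD-homo libraries. As CPM, all HD-het libraries (1.42 to 2.23) lay above control (0.764 to 0.952), and none of the HD-homo libraries had a count. The rise in HD-het cells was 2.15-fold (1.11 ± 0.25, adjusted p = 0.00366). Against the limit of 3 counts per library, Nnat in HD-homo cells was at least 7.56-fold lower than in control and at least 16.3-fold lower than in HD-het cells (adjusted p = 2.45e-05 and 2e-06). Blcap, in whose span Nnat lies, did not pass in either mutant line (-0.26 ± 0.27, adjusted p = 0.421 and 0.30 ± 0.26, adjusted p = 0.371).

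Impact, which blocks activation of the stress kinase GCN2, stood at 136, 124 and 139 CPM in control libraries, 155, 150.1 and 154 in HD-het libraries, and 26.8, 42.2 and 39.2 in HD-homo libraries. HD-homo libraries lay far below the others, 3.69-fold under control (-1.88 ± 0.14, adjusted p = 1.08e-06). HD-het libraries were all above control, but the difference did not pass (0.21 ± 0.14, adjusted p = 0.213); it passed without HD-homo library 1 (0.20, adjusted p = 0.0335). Of the neural precursor markers 7 were tested, and in HD-homo cells 4 were lower and 3 higher than control. Nes went from 399.6 ± 82.7 to 7.01 ± 0.611 CPM, while Dlx2 went from 9.25 ± 1.94 to 19.9 ± 7.47 CPM (SD, n = 3). The part of these differences in the values of Ndn, Snrpn, Peg3, Nnat and Impact was not tested.

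Mest ran the other way. This paternally expressed hydrolase-like protein of mesoderm and brain stood at 1.80, 1.28 and 1.66 CPM in control libraries, 5.81, 6.30 and 5.11 in HD-het libraries, and 19.8, 17.9 and 13.6 in HD-homo libraries. The lines did not overlap and rose in the order control, HD-het and HD-homo, 3.70-fold (1.89 ± 0.19, adjusted p = 1.02e-05) and 11.02-fold (3.46 ± 0.19, adjusted p = 6.34e-08) against control. Copg2, which overlaps its span, changed less (0.39 ± 0.10, adjusted p = 0.00627 and 0.55 ± 0.10, adjusted p = 0.00113). Whether counting used the strand is not given in the sources used here.

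**Figure D3:**
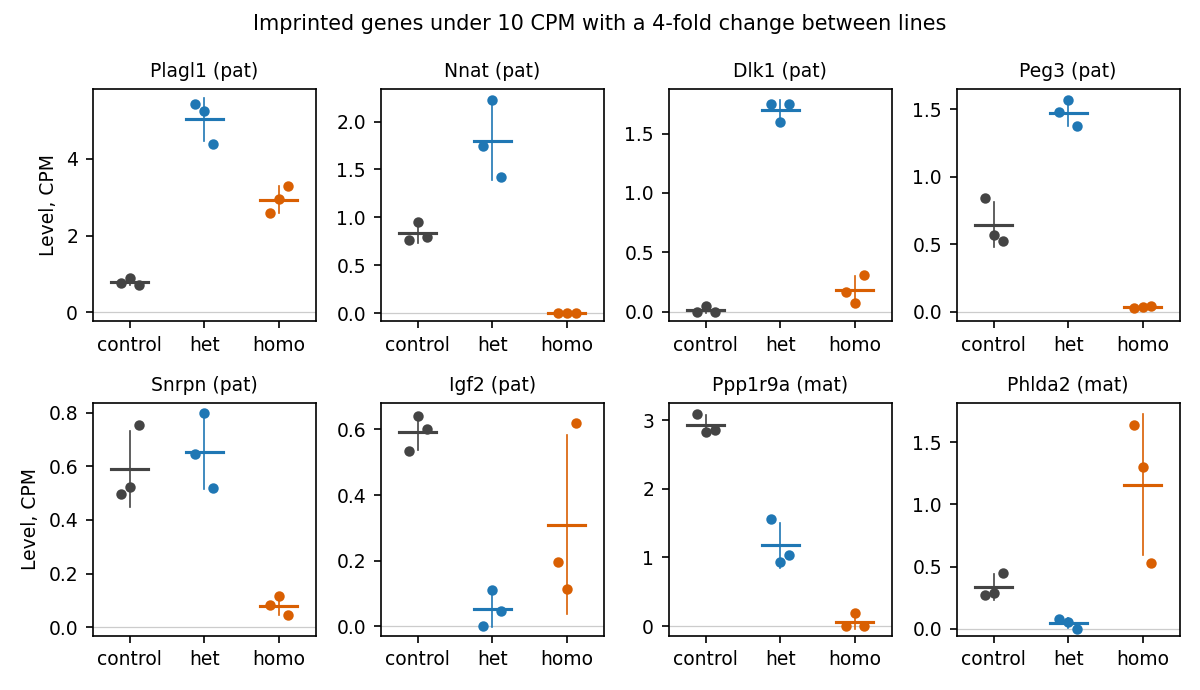
Footprint level in CPM of the 8 imprinted genes under 10 CPM whose level changed at least 4-fold between a pair of lines, 1 point per library, with the mean as a horizontal line and 1 SD as a vertical line (n = 3). Nnat is at 0 in all HD-homo libraries, Dlk1 is near 0 in control, and the HD-homo libraries of Igf2 and Phlda2 are widely spread.

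The 8 coding members with counts that were not tested stayed near the floor. Zdbf2 had 1 to 14 counts in a library, Usp29 2 to 10, Rasgrf1 0 to 13, Zim1 1 to 4, Slc22a18 0 to 5, Asb4 0 to 3, Nap1l5 0 to 2 and Magel2 0 to 2. Without the filter, 18 members passed in HD-homo against control and 18 between the mutant lines, in place of 17 each. Among the 3 lines 21 passed in place of 20. As CPM, HD-homo libraries of Rasgrf1 lay wholly below control (1 count in all against 22). Those of Usp29 (22 against 13) and Slc22a18 (12 against 2) lay wholly above. No direction is read from the 8 members at this depth.

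Along the chromosomes, neighbours were set side by side in 3 stretches that each hold several members. Imprinted genes from a list of 55 written from general knowledge, of which 54 had a row, were added. A stretch can hold more than 1 imprinted domain. Neighbours outside the 33 are named here after their values were seen. From Atp10a to Peg12 on chromosome 7, 7 genes were tested, and 6 were lower in HD-homo than in control cells (Atp10a, Ube3a, Snrpn, Snurf, Ndn and Peg12), against 22.3% of all genes, while Mkrn3 did not pass. In HD-het cells 1 of the 7 was higher (Ndn) and 1 lower (Peg12). Both paternally and maternally expressed genes are among the 6, and the annotated spans of Snrpn and Snurf overlap.

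Around Sgce on chromosome 6 the 6 genes tested were mixed, with 6 passing in HD-het cells and 5 in HD-homo cells, where 60.1% and 45.7% of all genes passed. In HD-het cells Sgce, Pon3 and Pon2 were higher and Casd1, Peg10 and Ppp1r9a lower. In HD-homo cells Sgce and Pon3 were higher, Peg10, Ppp1r9a and Pon2 lower, and Casd1 did not pass (0.35 ± 0.14, adjusted p = 0.0603). Pon3, a paraoxonase of the lactonase family, had the largest rise of this domain, from 0.174 ± 0.0271 CPM in control to 7.30 ± 0.883 in HD-het cells and 23.9 ± 3.28 in HD-homo cells (SD, n = 3; 5.39 ± 0.23, adjusted p = 2.1e-08 and 7.11 ± 0.21, adjusted p = 8.17e-10).

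From H19 to Dhcr7 on chromosome 7, 9 genes were tested. This stretch joins separate clusters, that of Igf2 and H19 and that of Kcnq1ot1, Cdkn1c, Slc22a18 and Phlda2, so it is not a single domain. HD-het cells had 3 of them higher and 4 lower, and HD-homo cells had 2 higher (Cdkn1c and Phlda2) and 3 lower (Cd81, Osbpl5 and Dhcr7), where 60.1% and 45.7% of all genes passed. Cd81, a tetraspanin, and Dhcr7, an enzyme of cholesterol synthesis, went up in HD-het cells and down in HD-homo cells, opposite to Cdkn1c and Phlda2 in both lines.

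**Figure D4:**
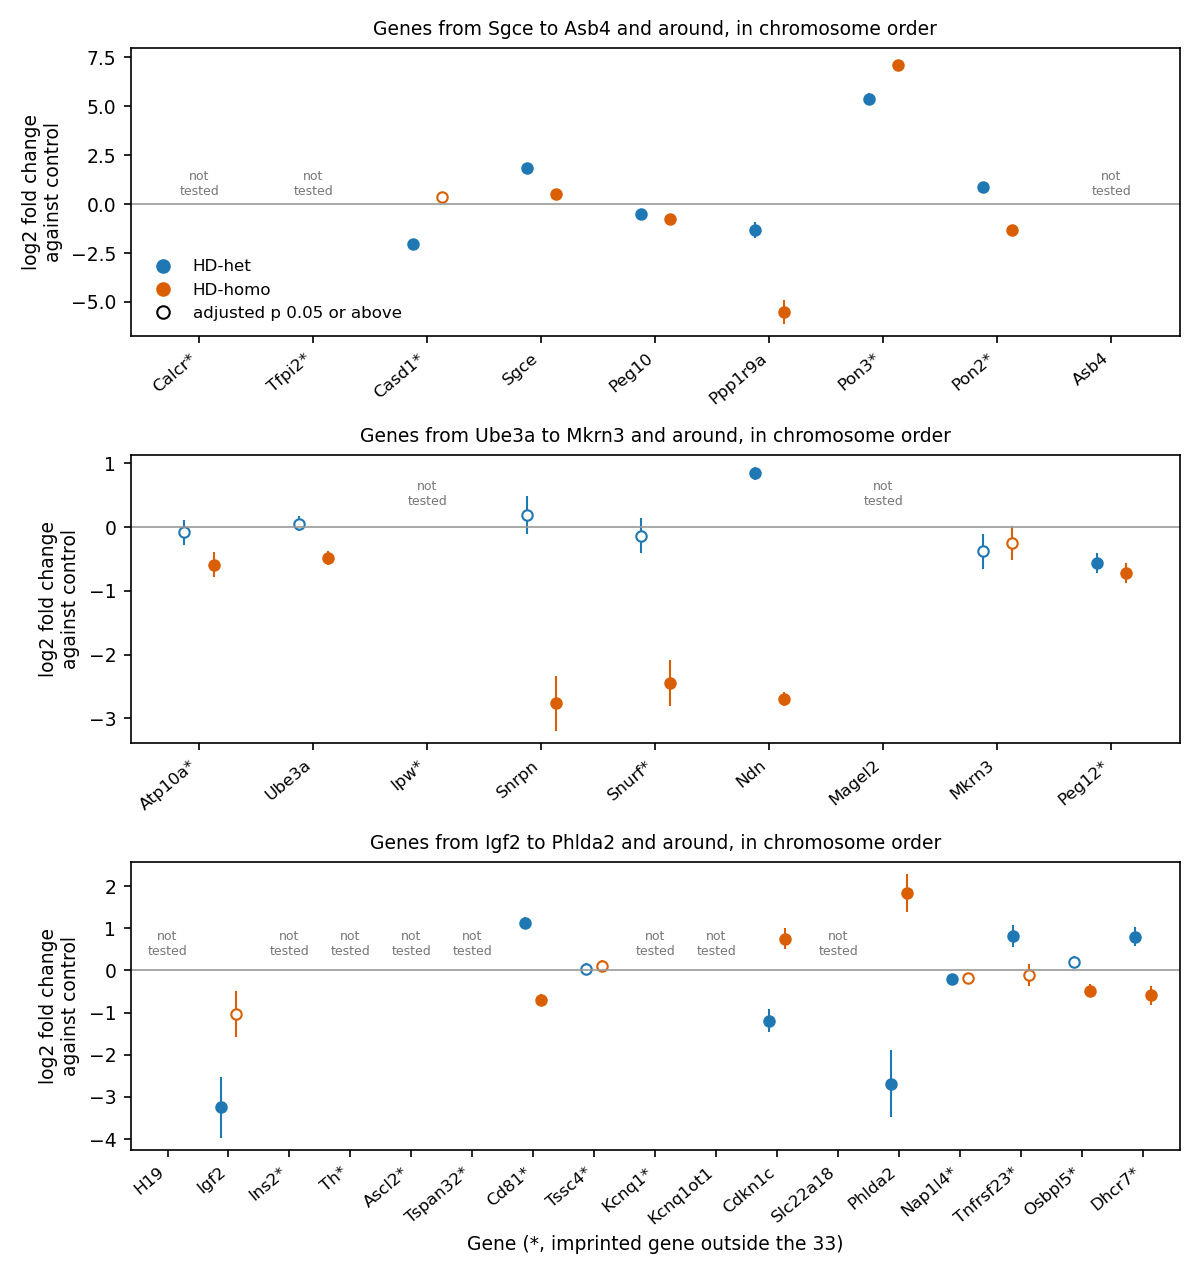
Log2 fold change against control of imprinted genes in chromosome order in 3 stretches, HD-het (blue) and HD-homo (orange), with bars of 1 SE. Open points did not pass an adjusted p of 0.05, and stars mark genes outside the 33. The bottom panel joins separate imprinted clusters. In the middle panel 6 of 7 genes tested are lower in HD-homo cells, while in the top and bottom panels neighbours lie on both sides of 0.

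Paternally and maternally expressed genes were compared as groups by counts and medians, with no test. Of 14 paternally expressed members tested, 9 were higher and 2 lower in HD-het cells, and 5 higher and 6 lower in HD-homo cells. Of the 6 maternally expressed members, 1 was higher and 4 lower in HD-het cells, and 3 higher and 2 lower in HD-homo cells. Of all genes tested 31% were higher and 29.1% lower in HD-het cells, and 23.3% higher and 22.3% lower in HD-homo cells. The median log2 fold change was 0.97 for paternal and -0.84 for maternal genes in HD-het cells, and -0.51 and 0.29 in HD-homo cells, where the medians over all genes were 0.02 in both. Between the mutant lines the medians were -1.32 and 0.70, with 2 paternal genes higher and 9 lower in HD-homo, and 3 maternal genes higher and 3 lower. With Nnat set to its bound in place of its fitted value, the paternal medians did not move. They could not, since the bound lies on the same side of them as the fitted value.

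These medians rest on few genes and on genes of uncertain imprint. Without the genes marked as dependent on tissue, 3 maternal genes remained (Igf2r, Cdkn1c and Phlda2), with medians of -1.19 (HD-het) and 0.75 (HD-homo). The 13 paternal ones left had medians of 1.11 and -0.77. Whether the imprint of the genes left is kept in these cells was not measured. The summed level of all 21 paternal genes was 368 ± 8.85 CPM in control, 439 ± 2.37 in HD-het cells and 197 ± 8.47 in HD-homo cells (SD, n = 3). That of the 11 maternal genes was 497 ± 40.3, 596 ± 38.3 and 999 ± 35.3 CPM. Neither sum overlapped between the lines. The high maternal sum of HD-homo cells was mostly Grb10. Without the genes marked as dependent on tissue the maternal sum was 98.3 ± 16.9 CPM there, 108 ± 23.1 in control and 281 ± 57.5 in HD-het cells. That smaller sum was nearly all Igf2r (93.7, 106 and 280 CPM in the same order). Its HD-homo libraries (86.1 to 118 CPM) overlapped control (82.7 to 128). In the paternal sum Peg10 and Impact were the largest parts in every line.

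Levels per length also changed order between lines. CPM per kilobase of the longest RefSeq coding sequence in control cells was highest for Gnas (233 ± 8.74), followed by Grb10 (142 ± 12.5) and Impact (139 ± 8.47), which overlapped, then by Peg10 (52.1 ± 3.20), Ube3a (46.7 ± 2.30) and Ndn (44.0 ± 1.80), each overlapping the next. Igf2r (14.2 ± 3.15) and Sgce (12.8 ± 2.08) overlapped, and Gab1 (3.67 ± 0.227) and Mest (1.53 ± 0.256) came last of these 10. In HD-het cells the order was Gnas, Impact, Grb10 and Ndn with no overlap (295, 160, 101 and 78.8 CPM per kilobase), and Ube3a, Sgce, Igf2r and Peg10 followed, each overlapping the next. In HD-homo cells Grb10 (436 ± 18.1) stood above Gnas (277 ± 7.39), and Ndn (6.77 ± 0.141) fell to the ninth place. These orders depend on using the longest coding sequence. RefSeq coding lengths ran from 762 to 3402 bases for Gnas, 1131 to 3021 for Peg10 and 1626 to 1866 for Grb10. The places of Gnas and Peg10 against other genes can therefore change with the product that is read.

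Other imprinted genes were counted in the same way. Of the 54 with a row 31 were tested, and 19 passed in HD-het against control (11 higher, 8 lower), 20 in HD-homo against control (7 higher, 13 lower) and 25 between the mutant lines (12 higher, 13 lower), that is 61.3%, 64.5% and 80.6% of those tested, against 60.1%, 45.7% and 67.5% of all genes. Beside Pon3, the largest changes among genes of at least 10 CPM were those of Mcts2, Ampd3, Slc38a4, Dcn and Herc3. Mcts2, a retrogene read from the paternal copy, fell from 18.1 ± 0.2997 CPM in control and 26.0 ± 1.78 in HD-het to 0.729 ± 0.101 in HD-homo cells (-4.64 ± 0.13, adjusted p = 6.51e-10). Ampd3, an AMP deaminase, rose from 2.70 ± 0.793 CPM in control to 33.4 ± 1.94 in HD-homo cells (3.64 ± 0.17, adjusted p = 2.07e-08) and was lower in HD-het cells (1.25 ± 0.137 CPM, -1.09 ± 0.21, adjusted p = 0.000892).

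Slc38a4, an amino acid transporter, and Dcn, the matrix proteoglycan decorin that is also in the mesenchymal list, were higher in HD-homo cells (2.80 ± 0.19, adjusted p = 3.76e-07 and 2.47 ± 0.17, adjusted p = 5.32e-07). Herc3, the host gene of Nap1l5, rose in HD-het (2.10 ± 0.19, adjusted p = 5.57e-06) and fell in HD-homo cells (-0.71 ± 0.20, adjusted p = 0.0128).

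Genes that set or keep imprints passed at shares of 60%, 36% and 56% in the same 3 comparisons, no higher than the 60.1%, 45.7% and 67.5% of all genes. Of 29 listed genes for DNA methylation, its removal and chromatin at imprints, 25 were tested. In HD-het against control 15 passed (5 higher, 10 lower), in HD-homo against control 9 (3 higher, 6 lower), and between the mutant lines 14 (7 higher, 7 lower). Dnmt3a, a de novo DNA methyltransferase, rose in HD-het cells from 8.88 ± 0.522 to 22.3 ± 3.73 CPM (1.33 ± 0.15, adjusted p = 1.8e-05) and did not pass in HD-homo cells (-0.35 ± 0.15, adjusted p = 0.0784). Tet3, which oxidises methylated cytosine, rose in HD-het cells too (0.88 ± 0.13, adjusted p = 0.000163). Uhrf1 and Hells, which act in copying methylation after replication, were lower in both mutant lines. Uhrf1 had fitted values of -0.72 ± 0.10, adjusted p = 6.66e-05 in HD-het cells and -0.54 ± 0.10, adjusted p = 0.000781 in HD-homo cells, and Hells of -0.91 ± 0.09, adjusted p = 1.05e-05 and -0.39 ± 0.09, adjusted p = 0.00498. Naa10 and Mbd3 were lower in HD-het cells (-0.64 ± 0.11, adjusted p = 0.00041 and -0.58 ± 0.09, adjusted p = 0.000176).

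Zfp57, whose recognition core was searched above, and Trim28 were chosen after their values were seen. Zfp57 stood at 9.64 ± 0.439 CPM in control, 8.43 ± 0.856 in HD-het cells and 8.30 ± 1.05 in HD-homo cells (SD, n = 3) and passed in neither mutant line (-0.19 ± 0.13, adjusted p = 0.219 and -0.21 ± 0.13, adjusted p = 0.198). Trim28, the partner of ZFP57, was lower in both (-0.43 ± 0.10, adjusted p = 0.00331 and -0.55 ± 0.10, adjusted p = 0.000942). Footprint levels of these genes do not measure methylation of any member.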

How the data were processed

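The authors deposited 1 table of raw counts, in which ribosome-protected fragments are summed for each gene symbol in 9 columns, with replicates kept apart. The submitters' processing notes name cutadapt, Bowtie 1.0.1 and the mouse build mm10. How genes were counted, on which annotation, and whether by strand is not given in the sources used here, so reads of overlapping genes or of near-identical copies may be split in ways that cannot be seen. There were 26 symbols that had been turned into dates (0.252% of counts), which stayed in the fit and are not named.

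Columns were matched to samples by name. Counts were fitted with edgeR 4.0.16 (limma 3.58.1, R 4.3.3), with TMM factors, the filterByExpr filter by line, line means as the only terms and all 9 libraries in 1 fit, so that the lines share 1 estimate of the spread. The quasi-likelihood F test was adjusted by Benjamini-Hochberg over 12678 genes with a threshold of 0.05, and a fold change is given as log2 ± SE. CPM were divided by TMM-scaled totals. The procedure was tested on simulated data. Replicate libraries of a line differed by more than sampling noise (chi-square per gene of 8.15 to 53.2), so each was counted as 1 sample. Ratios to a line with 1 to 3 counts have exact 95% counting intervals.

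Coordinates, coding lengths, overlaps and sequences are from RefSeq on GRCm38.p6, the build named mm10 (pysam 0.24.0). The members and all lists were chosen with earlier results of these data known. The parental copy of each gene was assigned from general knowledge. Values in every library are given for members with a mean of at least 10 CPM in a line and for those that passed with at least 4-fold between any pair of lines, and 6 genes of each other list are named by the size of their change against control among those of at least 10 CPM. Beyond this rule, neighbours and overlapping genes of members, Zfp57 and Trim28 were named after their values were seen. Alternatives were RLE size factors, total counts, DESeq2 1.42.0, a fit without the filter, a filter of 10 or more counts per library in all libraries, fits on 6 libraries, a block on the replicate number, stricter parental groups and leaving out each library. Some items are not reported here.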

Additional observations from a re-analysis of the deposited data

Results flagged for a closer look

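For 6 members the 2 mutant lines differed from control in opposite directions, and the difference between the mutant lines passed its own test (edgeR, HD-homo against HD-het, Benjamini-Hochberg over all genes tested). Both changes were measured against the same control libraries. Higher in HD-het and lower in HD-homo cells were Peg3 (log2 difference of HD-homo from HD-het -5.22 ± 0.39, adjusted p = 5.4e-07), Ndn (-3.54 ± 0.10, adjusted p = 5.41e-10) and Nnat (-8.74 ± 0.63, adjusted p = 2e-06, a fitted value that is no bound because HD-homo cells held 0 counts). Lower in HD-het and higher in HD-homo cells were Grb10 (2.11 ± 0.10, adjusted p = 2.03e-08), Cdkn1c (1.94 ± 0.25, adjusted p = 3.56e-05) and Phlda2 (4.53 ± 0.63, adjusted p = 6.25e-05). The first 3 are known as paternally and Cdkn1c and Phlda2 as maternally expressed, while the copy of Grb10 that is read depends on the cell type. Phlda2 entered the comparison of HD-het with control cells through its level in HD-homo cells. The 6 were selected by their results, so this is a description. How many of all genes tested show the same pattern was not counted. Of all genes 60.1% passed in HD-het against control, 45.7% in HD-homo against control and 67.5% between the mutant lines. What set the lines apart was not tested, and genotype and line cannot be told apart.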

How the results depend on the processing

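Of 63 comparisons of single members, 49 kept their side of the threshold and their direction under every alternative that gave a value. Over all 984 such values, 948 kept both, 23 lost the call, 7 gained one and 6 changed sign, all 6 for comparisons that had not passed. All came from leaving out 1 library. Over such settings the log2 fold change in HD-het cells ran from -0.012 to 0.38 for Snrpn and from -0.018 to 0.089 for Ube3a, negative for both without HD-het replicate 2. That of Rtl1 in HD-homo cells ran from -0.61 to 0.29, and was positive without control replicate 1 (0.014), without control replicate 3 (0.033) and without HD-homo replicate 1. That of Mkrn3 between the mutant lines ran from -0.011, without HD-het replicate 3, to 0.28. Gains included Peg10 between the mutant lines, with RLE size factors (adjusted p = 0.0465), DESeq2 (0.0426) and at least 10 counts in every library (0.0418), and Impact in HD-het cells with only the 6 libraries compared (0.0267). Igf2 between the mutant lines, which entered through its level in control cells, passed (2.21) and did not without HD-het replicate 1 or 3 or HD-homo replicate 3 (1.70, 2.13 and 1.38).

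With at least 10 counts in every library only 14 members were tested, and 11 passed in each of the 3 comparisons between lines and 13 among the 3 lines; fewer genes tested is the filter's own construction. The paternal median in HD-het cells was 0.43 with no filter. The maternal median in HD-het cells was -0.36 with no filter, -0.19 with at least 10 counts in every library, -0.49 with only the 6 libraries compared and -1.19 with strict parental groups. In HD-homo against control the paternal median was -1.05 with no filter and -0.16 with at least 10 counts in every library, and the maternal one 0.73 with no filter and 0.75 with strict parental groups. Leaving out each library gave maternal medians of 0.15 to 0.40 there, the lowest without HD-homo replicate 1. Between the mutant lines the paternal median was -0.82 with at least 10 counts in every library and the maternal one 1.94 with strict parental groups. The filters, the fit on 6 libraries and the strict groups count different members. Without HD-homo replicate 1 the same number of members was counted, and the cause was not tested.

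No pairing by replicate number was seen in deviations from the line means. They correlated between -0.419 and 0.199 for the 9 pairs with the same number and between -0.339 and 0.454 for the 18 others. With 3 libraries per line this cannot tell whether libraries of the same number were handled together. With the replicate number as a block, 16 members passed in HD-het cells, 17 in HD-homo cells and 16 between the mutant lines, in place of 17 each. The calls lost were those of Rtl1 in HD-het against control (1.14, adjusted p = 0.0702) and between the mutant lines (-1.25, adjusted p = 0.0533). RLE size factors and total counts moved the median of all genes by at most 0.08 on the log2 scale. Depth limits the 8 members that were not tested, whose levels lay near the limit of 3 counts.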
